A study of Mus musculus with 6 samples.

Results

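The genes described here are 10 genes of the Wnt signalling pathway, followed across differentiating 3T3L1 fat cells: the ligand genes Wnt5a, Wnt5b and Wnt10b, the receptor genes Fzd1, Fzd4 and Fzd7, the antagonist genes Sfrp1, Sfrp2 and Dkk3, and Wisp2. They were taken from the deposited table by gene symbol, and all 10 were among its 53342 genes, each with 1 entry. Of the 10, 8 passed the filter on low values (a normalized value of at least 1 in at least 2 libraries), and Wnt5b and Sfrp1 did not, because both were listed at 0 in all 6 libraries. Among all genes 24139 passed and 25966 were listed at 0 in all 6.

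3T3L1 is an established mouse fibroblast-like cell line that turns into fat cells under hormones, so every sample comes from the same line. All samples shared the same induction, which was 2 days of insulin at 1 µg/ml, IBMX at 0.5 mM and dexamethasone at 1 µM in medium with 10% serum, followed by insulin alone. The 3 groups of 2 samples differed in what was added: nothing (untreated), the solvent DMSO, or LTK-14A, called a butyrylation inhibitor by the submitters. Total RNA was sequenced after removal of ribosomal RNA with a stranded kit. For LTK-14A neither dose nor timing is given in the sources used here. Nothing in the labels says that the 2 samples of a group were separate cultures, so the spread behind each p-value may be technical and is that between these samples only.

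Wnt proteins are secreted, lipid-modified signals that bind Frizzled receptors together with the co-receptors Lrp5 and Lrp6. In the canonical branch this keeps beta-catenin from being degraded, so that it can activate genes with T cell factor and lymphoid enhancer factor proteins, and in preadipocytes this branch is known to hold back fat cell formation, with Wnt10b as its best known ligand. Wnt5a and Wnt5b act mainly through other branches, and the secreted Frizzled-related proteins (Sfrp) and Dickkopf proteins (Dkk) restrain the pathway outside the cell.

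The 2 libraries of each group were compared as normalized values (back-transformed from the deposited log scale). The most frequent value under 12 in a library, called a step here, stands near 1 read. Depth differed by group: the untreated libraries held 5340902 and 6385677 steps, those of DMSO 2854171 and 2807676, and those of LTK-14A 3571861 and 2738411. A deposited 0 stands for a normalized value of at most 1, which is less than 1 step. Untreated replicate 2 stood apart from the rest: the ribosomal RNA loci Gm26917 and Gm42418 took 16.4% of its total, where in the others they took 8.6% to 10.6%. Across 13179 genes whose mean was 20 or more, the 4 control libraries correlated with each other at 0.945 to 0.979 and with those of LTK-14A at 0.869 to 0.906. All 11 adipocyte markers checked were detected in each untreated and DMSO library. With LTK-14A, Lep was at 0 in replicate 1.

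Promoter sequence was available from RefSeq (GRCm38.p6, the mm10 build of the deposited coordinates) for 6 of the 10 genes. The windows of Fzd4 and Fzd7, each from 250 bases before to 50 bases after the RefSeq start, are shown because these are receptors of 1 family, of which Fzd4 fell with LTK-14A and Fzd7 did not pass the test. Capitals mark CpG dinucleotides. The Fzd4 window lies at chr7:89404116-89404415 and the Fzd7 window at chr1:59481897-59482196, both on the plus strand. The Fzd4 entry of the deposited values starts at 89404355, inside its window. The Fzd7 entry starts at 59482424, so its window lies wholly upstream of it.
Fzd4: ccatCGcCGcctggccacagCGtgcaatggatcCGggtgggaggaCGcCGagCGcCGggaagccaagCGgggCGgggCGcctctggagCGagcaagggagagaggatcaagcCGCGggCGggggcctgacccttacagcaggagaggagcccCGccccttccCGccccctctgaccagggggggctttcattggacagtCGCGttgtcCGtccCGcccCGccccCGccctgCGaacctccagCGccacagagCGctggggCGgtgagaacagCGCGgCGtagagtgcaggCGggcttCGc
Fzd7: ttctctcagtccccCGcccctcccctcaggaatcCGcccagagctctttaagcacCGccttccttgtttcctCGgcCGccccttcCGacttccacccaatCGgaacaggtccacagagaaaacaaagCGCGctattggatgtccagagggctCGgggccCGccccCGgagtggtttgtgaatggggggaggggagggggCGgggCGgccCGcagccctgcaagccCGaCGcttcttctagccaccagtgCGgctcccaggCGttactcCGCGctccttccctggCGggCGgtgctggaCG

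The Fzd4 window held 32 CpG dinucleotides at a GC content of 72.7%, and the Fzd7 window held 24 at 66.7%. The median over all 32851 RefSeq windows of 300 bases was 7, with a median GC content of 52.7%. Neither window held the T cell factor letters CTTTGAA or CTTTGAT, the C/EBP letters TTGCGCAA, TTGCACAA or TTGCATCA, or the AP-1 letters TGACTCA, searched on both strands. These letters occur in 8.65%, 2.07% and 5.2% of all windows, in that order. The 6 genes have 8 annotated windows in all, of which 1 held a T cell factor match and 1 an AP-1 match, both of them windows of Wnt5b. The first Wnt5b window had 47 CpG dinucleotides, more than Fzd4, although Wnt5b was listed at 0 throughout.

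Cells given LTK-14A were compared with cells given the solvent. Among the 10 genes the Wnt receptor gene Fzd4 fell and Wisp2, which codes for a secreted matrix-associated protein of the CCN family, rose. The other 6 genes tested did not pass the threshold (adjusted p under 0.05, limma, Benjamini-Hochberg over all 24139 genes). In all, 2 of 8 tested genes were called, 1 in each direction, where 10.6% of all tested genes were called (3.98% higher and 6.58% lower). The median log2 fold change of the 8 was -0.40, against -0.05 over all genes tested.

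**Figure D1:**
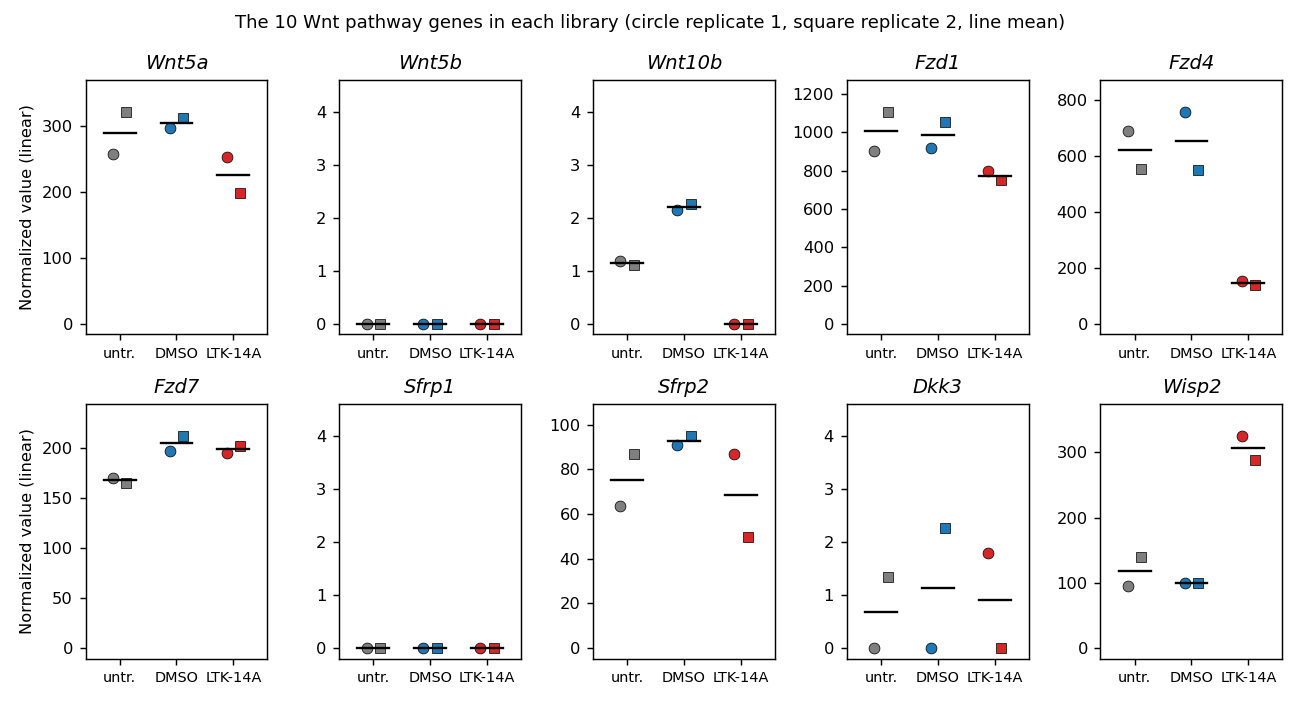
Normalized value (linear axis, separate scale per panel) of the 10 Wnt pathway genes in each of the 6 libraries, with circles for replicate 1, squares for replicate 2 and a line at the mean of 2. Fzd4 was lower in both LTK-14A libraries (155 and 138) than in the other 4 (551 to 759), Wisp2 was higher in both (325 and 289 against 95.6 to 140), and Wnt5b and Sfrp1 were listed at 0 in all 6.

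Of the ligands, Wnt5a (ENSMUSG00000021994, chromosome 14, 28504750 to 28527448) was the only 1 of the 3 with more than 1 step in any library. Wnt5a stood at 257 and 321 in untreated libraries, 296 and 312 with DMSO, and 252 and 198 with LTK-14A. Both LTK-14A values lay below all 4 others, the higher of them close to the lower untreated value. The log2 fold change on the scale of value + 1 was -0.44 against DMSO (SE 0.18, 95% interval -0.86 to -0.03, adjusted p = 0.164, limma) and -0.36 against untreated (SE 0.18, adjusted p = 0.230, limma), so Wnt5a was not called in either. Its exons share 358 bases, 4.58% of their merged length, with the opposite-strand gene Gm2670, which stood at 4.58 to 22.6. Whether reads were counted by strand is not given in the sources used here, so reads of the overlap may belong to either gene.

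Wnt10b (ENSMUSG00000022996, chromosome 15, 98770712 to 98778150), the ligand known for restraining adipogenesis, was at the detection limit. It stood at 1.19 and 1.11 in untreated libraries, 2.15 and 2.26 with DMSO, and 0 in each library of LTK-14A cells. The 4 values above 0 are each exactly 1 step of their library, so they carry no order between untreated and DMSO, and no fold change is given. Its adjusted p for LTK-14A against DMSO was 0.102 (limma). With a pseudocount of 0.1 it was 0.0499, and without the variance trend 0.022. Against untreated it was 0.240, and 0.0393 without the trend. Values of 1 step against 0 leave almost no spread within a group, so these p-values cannot tell a difference from the detection limit. Wnt5b (ENSMUSG00000030170, chromosome 6, 119432531 to 119544347), reported to favour fat cell formation in culture, was listed at 0 in all 6 libraries.

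Of the 3 Frizzled receptor genes 1 passed the test. Fzd4 (ENSMUSG00000049791, chromosome 7, 89404355 to 89413134, 2 exons), a receptor for Wnt ligands and for the unrelated ligand Norrin, stood at 691 and 553 in untreated libraries, 759 and 551 with DMSO, and 155 and 138 with LTK-14A. The LTK-14A libraries did not overlap with either control group, while the spread within the controls was wide, with replicate 1 above replicate 2 in both. Against DMSO the log2 value of Fzd4 fell by 2.14 (SE 0.19, 95% interval -2.59 to -1.69, adjusted p = 0.000771, limma), which is 4.41-fold lower. Against untreated cells it fell by 2.08 (SE 0.19, adjusted p = 0.000745, limma). The call held in all 16 alternatives for each comparison, at log2 fold changes of -2.37 to -1.91 against DMSO and -2.24 to -1.92 against untreated.

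Fzd1 (ENSMUSG00000044674, chromosome 5, 4753839 to 4758035, 1 exon), a Frizzled receptor described in preadipocytes, stood at 903 and 1108 in untreated libraries, 918 and 1055 with DMSO, and 795 and 751 with LTK-14A. Both LTK-14A libraries were thus below all 4 others. Its log2 fold change was -0.35 against DMSO (SE 0.14, 95% interval -0.68 to -0.02, adjusted p = 0.169, limma) and -0.37 against untreated (adjusted p = 0.134, limma). Fzd1 did not pass in either comparison. Without untreated replicate 1 its log2 fold change against untreated was -0.52, the only 1 of 16 alternatives there that called it. That fit rests on untreated replicate 2 alone, which held the highest Fzd1 value.

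Fzd7 (ENSMUSG00000041075, chromosome 1, 59482424 to 59486955, 1 exon), a receptor known from stem and progenitor cells, stood at 170 and 166 in untreated libraries, 197 and 212 with DMSO, and 196 and 202 with LTK-14A. Its LTK-14A and DMSO libraries overlapped, and the untreated libraries were the lowest. The log2 fold change for LTK-14A against DMSO was -0.04 (95% interval -0.38 to 0.29, adjusted p = 0.898, limma), and it was 0.04 after quantile normalization. The interval for Fzd4 lies wholly below those for Fzd1 and Fzd7, and the difference between the genes itself was not tested. Within each library the ratio of Fzd4 to Fzd1, which scaling cannot change, was 0.499 to 0.827 in the 4 controls and 0.195 and 0.183 with LTK-14A. The ratio of Fzd4 to Fzd7 was 2.6 to 4.07 in the controls and 0.792 and 0.682 with LTK-14A.

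**Figure D2:**
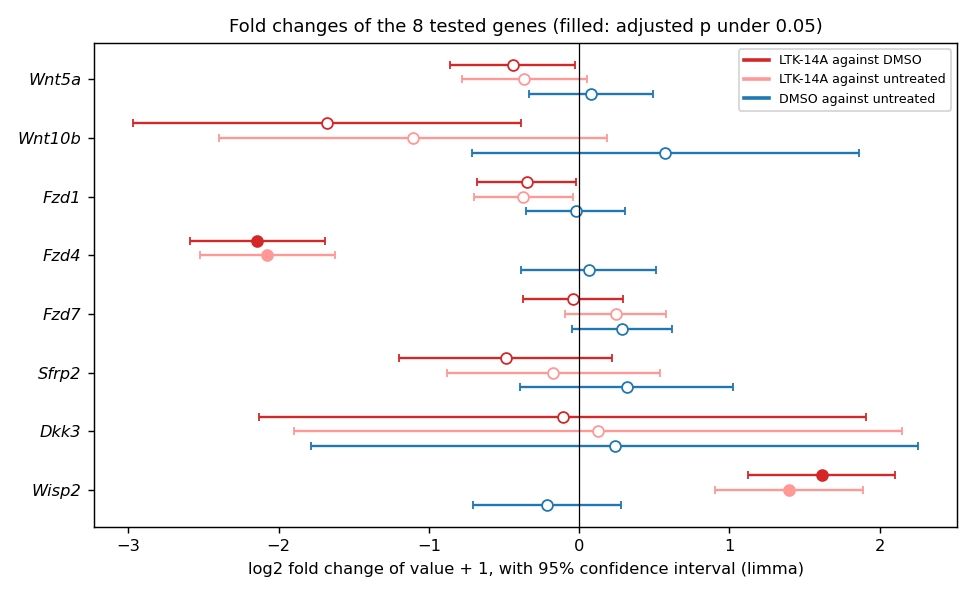
Log2 fold change of value + 1 (x axis) for the 8 tested genes in the 3 comparisons, with the 95% confidence interval of the limma fit as bars and filled points where the adjusted p was under 0.05. Only Fzd4 (-2.14 and -2.08) and Wisp2 (1.61 and 1.40) have filled points, both for LTK-14A against DMSO and against untreated.

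Wisp2 (ENSMUSG00000027656, chromosome 2, 163820861 to 163833146), named Ccn5 in current annotation and first described as a Wnt1-induced gene, stood at 95.6 and 140 in untreated libraries, 99.5 and 99.6 with DMSO, and 325 and 289 with LTK-14A. Both LTK-14A libraries lay above all 4 others, and the DMSO libraries were nearly equal while the untreated ones were not. The log2 fold change was 1.61 against DMSO (SE 0.21, 95% interval 1.12 to 2.10, adjusted p = 0.00385, limma), which is 3.06-fold higher, and 1.40 against untreated (SE 0.21, adjusted p = 0.00581, limma). Without untreated replicate 2 the latter was 1.67 (adjusted p = 0.00228, limma). The call against DMSO was lost without DMSO replicate 2 (adjusted p = 0.0502) and without LTK-14A replicate 1 (adjusted p = 0.0642), at log2 fold changes of 1.61 and 1.53. Against untreated it was lost without LTK-14A replicate 1 (log2 fold change 1.31, adjusted p = 0.0772), without LTK-14A replicate 2 (1.48, adjusted p = 0.0537) and without the variance trend (adjusted p = 0.0525).

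Of the antagonists, Sfrp2 (ENSMUSG00000027996, chromosome 3, 83766321 to 83774316), a secreted protein that binds Wnt ligands, was the only 1 well above the detection limit. Sfrp2 stood at 63.6 and 86.7 in untreated libraries, 90.8 and 94.9 with DMSO, and 87.1 and 49.8 with LTK-14A. The LTK-14A libraries lay below both DMSO libraries but spread more widely than the difference, and they overlapped with the untreated ones. The log2 fold change was -0.49 against DMSO (SE 0.30, 95% interval -1.20 to 0.22, adjusted p = 0.377, limma) and -0.17 against untreated (adjusted p = 0.760, limma). Sfrp2 shares 347 exon bases, 16.1% of its merged exon length, with the opposite-strand gene Gm26771, which stood at 1.69 to 5.15.

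Dkk3 (ENSMUSG00000030772, chromosome 7, 112116017 to 112159057), a divergent Dickkopf protein, was above 0 in 1 library of each group, at 1.35 (untreated replicate 2), 2.26 (DMSO replicate 2) and 1.80 (LTK-14A replicate 1). These values are 1 to 1.22 steps, so no difference between groups was detectable at this depth. Sfrp1 (ENSMUSG00000031548, chromosome 8, 23411502 to 23449632), a relative of Sfrp2, was listed at 0 in all 6 libraries.

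The solvent alone was compared with no addition. By limma 0 of the 8 tested genes passed, and 0 had an unadjusted p under 0.05. Among all genes tested 0.0249% passed, all of them higher with DMSO, and 5.83% had an unadjusted p under 0.05. Of the 8 members tested, Sfrp2 differed most once Wnt10b and Dkk3, whose means lay under 20, were left aside. Its log2 fold change was 0.32 (95% interval -0.39 to 1.03, adjusted p = 0.841, limma). The next was Fzd7, at 0.29 (95% interval -0.05 to 0.62, adjusted p = 0.804, limma). For Fzd4 the value was 0.06 (95% interval -0.39 to 0.51) and for Wisp2 it was -0.22 (95% interval -0.71 to 0.28). In LTK-14A against untreated, which shares its LTK-14A libraries with the first comparison, 2 of the 8 genes passed, Fzd4 lower and Wisp2 higher, where 12.9% of all genes did (8.17% lower and 4.68% higher). There 3 of the 8 had an unadjusted p under 0.05, as did 28.6% of all genes. In LTK-14A against DMSO it was 5 of the 8 and 26.3%. The 5 include Wnt10b, whose p-value cannot tell a difference from the detection limit.

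Groups without overlap were counted as well. In LTK-14A against DMSO the groups did not overlap for 6 of the 8 tested genes, 5 lower and 1 higher, where 54.3% of all genes tested did not overlap (29.8% lower and 24.5% higher). In DMSO against untreated this held for 3 of 8, all higher with DMSO, where 33.1% did not overlap (16.0% higher and 17.2% lower). In LTK-14A against untreated it held for 6 of 8, 4 lower and 2 higher, beside 53.6% of all genes (28.9% lower and 24.6% higher). Of the 3 in DMSO against untreated, Wnt10b was at 1 step in all 4 libraries. It is also 1 of those lower in both LTK-14A comparisons, at 1 step in the controls and 0 with LTK-14A.

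Between genes, levels were compared per kilobase of merged exon. With DMSO the order of the mean levels was Fzd1 (235 ± 23.0 per kb, SD, n = 2), Fzd4 (97.5 ± 22.0), Wisp2 (51.8 ± 0.0445), Fzd7 (45.1 ± 2.33), Sfrp2 (43.1 ± 1.37) and Wnt5a (38.8 ± 1.46), with Wnt10b and Dkk3 below 1 per kb. Fzd7 and Sfrp2 are neighbours that did not differ beyond their spread. In untreated cells Fzd7 (37.0 ± 0.655 per kb), Wnt5a (37.0 ± 5.78) and Sfrp2 (34.9 ± 7.57) did not differ beyond theirs. With LTK-14A, Fzd1 led at 184 ± 7.40 per kb, followed by Wisp2 at 160 ± 13.3, Fzd7 at 43.8 ± 0.959 and Sfrp2 at 31.8 ± 12.2. Fzd4 was the last of the 6, at 21.8 ± 1.80, next to Wnt5a at 28.7 ± 4.88.

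Within their families the genes carried unequal shares of the summed level per kb. Wnt5a made up 46.1% to 62.1% of the level of all 19 Wnt ligand genes in the 4 controls and 47.1% and 41.2% with LTK-14A. The next ligand was Wnt6, at 22.1 and 20.3 (normalized value) with DMSO, 54.8 and 45.8 with LTK-14A, and 25.7 and 75.2 in untreated cells. Wnt6 was not called against DMSO (log2 fold change 1.20, SE 0.48, adjusted p = 0.162, limma), and of its untreated libraries 1 was below and 1 above both LTK-14A libraries. In all, 9 of the 19 ligand genes were listed at 0 throughout.

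Fzd1 was the leading Frizzled gene in every library, with 44.3% to 53.1% of the family's level per kb. Fzd4 held 15.9% to 22.9% in the controls and 6.45% and 5.61% with LTK-14A. The summed level of the 10 Frizzled genes was 484 to 519 per kb in the controls and 357 and 365 with LTK-14A. Sfrp2 made up 95.9% to 100% of the level of the 5 genes of the Sfrp family in each library. Wisp2 held 26.3% to 40.2% of the level of the 5 CCN genes listed in the controls and 41% and 47.3% with LTK-14A.

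**Figure D3:**
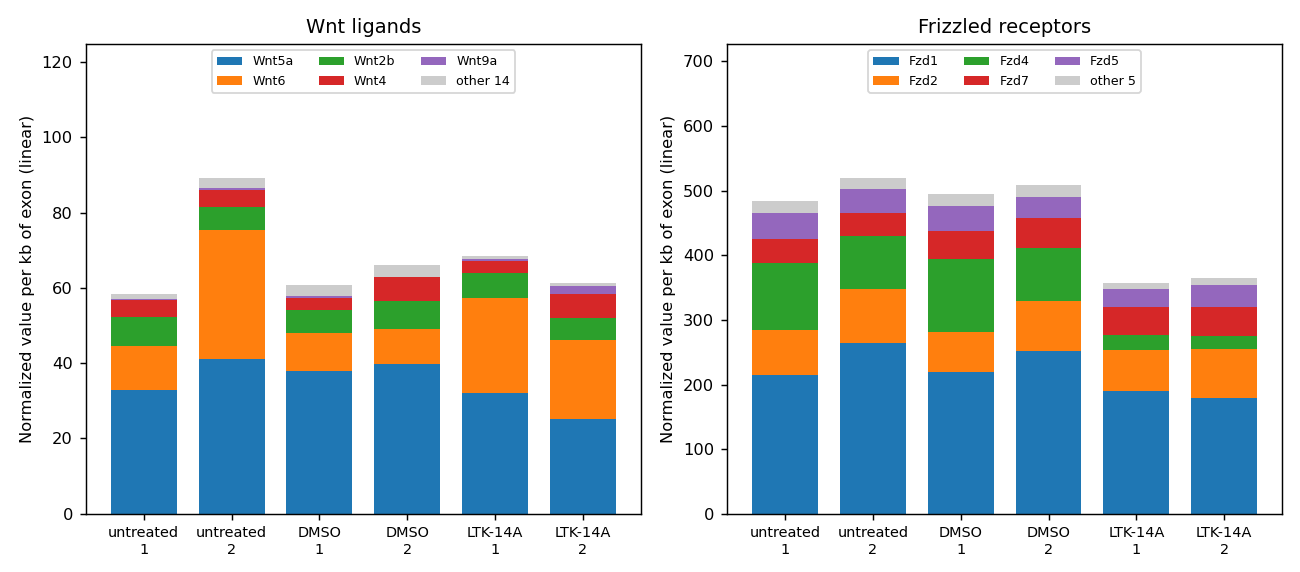
Summed normalized value per kb of merged exon (linear axis) in each of the 6 libraries, stacked by gene, for the 19 Wnt ligand genes (left) and the 10 Frizzled genes (right). Wnt5a and Fzd1 form the largest part in every library, and the Fzd4 part is smaller in the LTK-14A libraries (6.45% and 5.61%) than in the controls (15.9% to 22.9%).

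Of the wider pathway, 94 other genes were listed by role, and 67 were tested. In LTK-14A against DMSO 1 rose and 3 fell, which is 5.97% of the 67, beside 10.6% of all genes. Their median log2 fold change was -0.06, near that of all genes tested, -0.05. By role, 0 of 8 ligands, 1 of 5 genes of ligand secretion and R-spondins, 1 of 14 receptors and co-receptors, 1 of 3 antagonists, 1 of 26 intracellular components and 0 of 11 common target and feedback genes passed. By limma 20 of the 67 had an unadjusted p under 0.05, a share near the 26.3% of all genes tested.

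Apcdd1 (chromosome 18, 62922327 to 62953195), a membrane protein that inhibits Wnt signalling, stood at 86.1 and 85.0 in untreated libraries, 57.3 and 104 with DMSO, and 6.11 and 4.46 with LTK-14A. It fell by 3.65 (SE 0.37, adjusted p = 0.00119, limma), and the call held in all 16 alternatives. Fzd3, a receptor best known from axon guidance, stood at 78.5 and 72.8, 66.5 and 94.0, and 28.8 and 20.6 in the same order, and it fell by 1.66 (SE 0.29, adjusted p = 0.0120, limma). The corepressor gene Tle3, of the Groucho family, stood at 592 and 760, 527 and 607, and 257 and 302, and it fell by 1.02 (SE 0.17, adjusted p = 0.00965, limma). Porcn, the acyltransferase that adds the lipid to Wnt proteins, stood at 127 and 122, 117 and 89.3, and 201 and 208, and its log2 value rose by 0.99 (SE 0.18, adjusted p = 0.0162, limma).

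For each of these 4 genes the LTK-14A libraries lay apart from all 4 controls. With 1 library left out, the log2 fold changes were -1.91 to -1.41 for Fzd3, -1.14 to -0.90 for Tle3 and 0.80 to 1.18 for Porcn. The calls of Fzd3 and Tle3 were lost without any 1 of the 4 compared libraries, and that of Porcn without DMSO replicate 2 or either LTK-14A library. Without the variance trend Porcn and Tle3 were lost too (adjusted p = 0.0796 and 0.0887, limma).

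The co-receptor genes Lrp5 and Lrp6 had log2 fold changes of 0.13 (95% interval -0.30 to 0.56) and -0.03 (95% interval -0.27 to 0.22) in this comparison. The log2 fold changes of the receptor genes Lgr4 and Ryk were 0.11 and 0.26, and none of these 4 passed (adjusted p = 0.301 to 0.924, limma). Inside the cell, the beta-catenin gene Ctnnb1 had a value of 0.27, the kinase genes Csnk1a1 and Gsk3b 0.38 and -0.15, and the beta-catenin cofactor gene Bcl9l -0.36 (adjusted p = 0.104 to 0.541, limma). Among ligand genes other than Wnt6, the values were -0.12 for Wnt2b, 0.03 for Wnt4 and 1.40 for Wnt9a, which had a mean of only 2.37 (adjusted p = 0.336 to 0.991, limma). The Wnt carrier gene Wls and the R-spondin gene Rspo2 had log2 fold changes of 0.22 and 0.28 (adjusted p = 0.314 and 0.663, limma), and Znrf3, whose product removes Frizzled receptors from the membrane, had -0.50 (adjusted p = 0.127, limma). Rspo3, Rspo4 and Sfrp5 had means of 1.24, 1.05 and 0.952, near 1 step. Of the targets, the cyclin gene Ccnd1 had a log2 fold change of -0.27, the transcription factor genes Twist1 and Myc -0.30 and -0.09, and Wisp1, a relative of Wisp2, 0.36 (adjusted p = 0.322 to 0.759, limma). The ratio of Wisp2 to Wisp1 within a library was 0.312 to 0.685 in the controls and 0.959 and 0.883 with LTK-14A. The ratio of Wisp2 to Cyr61, another CCN gene, overlapped, at 0.582 to 1.02 in the controls and 0.911 and 1.46 with LTK-14A. Cyr61 stood at 115 and 138 in untreated libraries, 171 and 144 with DMSO, and 357 and 199 with LTK-14A. It was not called against DMSO (log2 fold change 0.76, adjusted p = 0.133, limma) and was higher against untreated (1.07, adjusted p = 0.0451, limma). Against untreated cells 12 of the 67 passed, 5 higher and 7 lower, or 17.9% beside 12.9% of all genes, and Apcdd1, Fzd3, Tle3 and Porcn were among the 12. In DMSO against untreated 0 of the 67 passed by limma, and 5 had an unadjusted p under 0.05, beside 0.0249% and 5.83% of all genes tested.

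**Figure D4:**
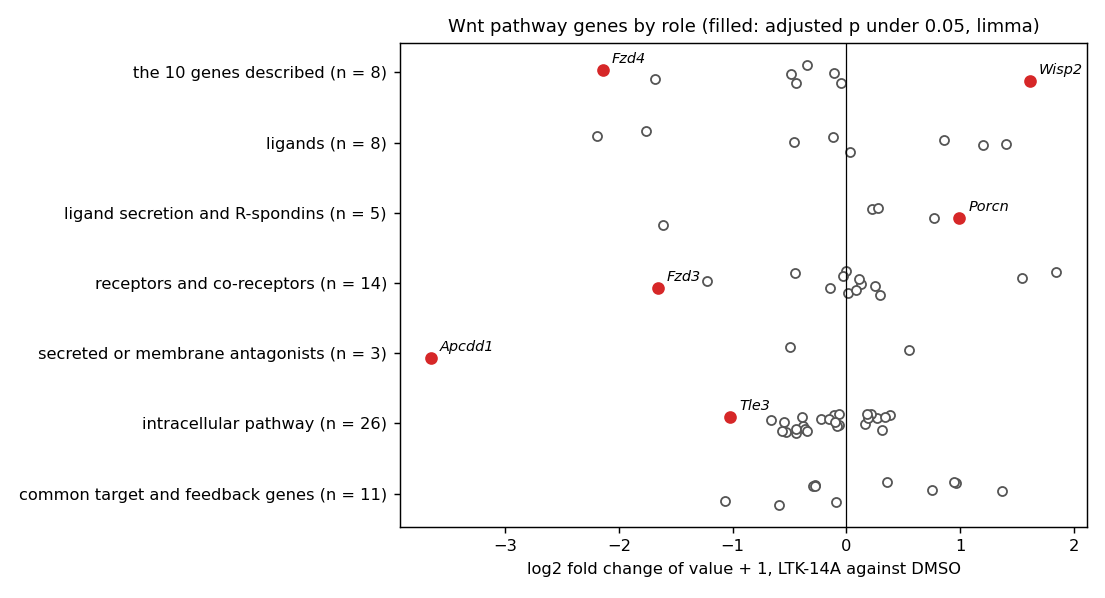
Log2 fold change of value + 1 for LTK-14A against DMSO (x axis) of the 8 tested genes described and of 67 further tested Wnt pathway genes by role (rows, with n tested), 1 point per gene, shifted vertically for visibility. Filled points passed an adjusted p of 0.05 by limma: Wisp2 and Porcn lie above 0, and Fzd4, Fzd3, Apcdd1 and Tle3 below.

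Cell type markers moved in the same comparison. All 11 adipocyte markers were lower with LTK-14A than with DMSO, at a median log2 fold change of -3.78. Their summed level was 78834 to 106441 in the controls and 34903 and 37437 with LTK-14A. Most of this sum is Lpl, which fell least of the 11, from a mean of 55437 with DMSO to 32112 (log2 fold change -0.79). The sum therefore understates the fall of the other markers, such as Adipoq (5506 to 287). Of 10 preadipocyte or fibroblast markers 4 were higher (Dlk1, Thy1, Fn1 and Vim) and 0 lower by limma. Of the 6 others, Pdgfra, Pdgfrb and Col3a1 had both LTK-14A libraries below both DMSO libraries, and Col1a1 had both above. The summed level of the 10 was 66199 and 71649 with DMSO, 97270 and 101755 with LTK-14A, and 70521 and 107872 in untreated cells. Fn1, which is part of this sum, had a mean of 11374 with DMSO and 33629 with LTK-14A, and supplied most of the rise over DMSO. The part of these markers in the results for Fzd4 and Wisp2 was not tested. In bulk samples fewer cells of a type and less RNA per cell cannot be told apart.

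Markers of other cell types did not move one way. Of 5 smooth muscle or myofibroblast markers Des and Myh11 were lower with LTK-14A than with DMSO (adjusted p = 0.00625 and 0.0466, limma). Acta2, the most abundant of them, stood at 1663 and 2439 in untreated libraries, 2218 and 1988 with DMSO, and 3700 and 3182 with LTK-14A (adjusted p = 0.0560 against DMSO, limma). The sum of the 5 was 1862 to 2710 in the controls and 3783 and 3234 with LTK-14A. Of 5 bone or cartilage markers Bglap was at 0 throughout and Runx2 was higher (196 with DMSO and 307 with LTK-14A on average, adjusted p = 0.0387, limma). Their sum was 354 to 397 in the controls and 549 and 563 with LTK-14A.

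Of 5 macrophage markers Ptprc was at 0 in all libraries and Adgre1 in 5 of 6. Cd68 rose from 14.9 and 16.6 with DMSO to 62.3 and 67.3 (adjusted p = 0.0133, limma), Lyz2 fell from 12.7 and 9.21 to 0 in both (adjusted p = 0.00697, limma), and Csf1r stood at 27.4 and 42.6 and then at 23.8 and 17.4 (adjusted p = 0.296, limma). Their sum was 47.2 to 68.5 in the controls and 87.9 and 84.6 with LTK-14A. The 4 endothelial markers summed to 4.46 to 9.57 in the controls and to 0 with LTK-14A, and of 4 epithelial markers Epcam, Krt8 and Cdh1 were at 0 throughout. Of 4 skeletal muscle markers Myod1 and Myog were at 0, and the sum was at most 5.11. Of 3 proliferation markers Ccnb1 fell from a mean of 40.3 with DMSO to 14.4 (adjusted p = 0.0431, limma), while Mki67 and Top2a had log2 fold changes of -0.06 and 0.06 (adjusted p = 0.885 and 0.840, limma). The part of these markers in the results was not tested either.

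Over the 6 libraries the genes whose pattern was most like that of Fzd4, among 10579 named genes with a mean of at least 20, were the potassium channel gene Kcnma1 (Pearson r = 0.9986) and Aldh4a1, a mitochondrial enzyme of proline breakdown (r = 0.9973). Kcnma1 stood at 44.6 and 40.0 in untreated libraries, 50.9 and 38.1 with DMSO, and 16.7 and 15.4 with LTK-14A. For Wisp2 they were Gla, the lysosomal alpha-galactosidase gene (r = 0.9996), and the ribosomal protein gene Rps3 (r = 0.9989), whose reads may be shared with pseudogenes. These values describe likeness over 6 libraries in 3 groups, which the group difference dominates: 55 genes had an r of at least 0.99 with Fzd4 and 42 with Wisp2. Among the closest for the other members were, for Fzd1, Tomm40l (r = 0.9951) and Arfgap2 (r = 0.9916), for Wnt5a Sars2 (r = 0.9902), for Fzd7 Kdm6bos (r = 0.9899) and Ppp2r3a (r = 0.9898), and for Sfrp2 Hic2 (r = 0.9831) and Lyrm9 (r = 0.9809).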

How the data were processed

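RNA from 6 samples, 2 each of untreated, DMSO and LTK-14A cells, was given as 1 table of normalized values per gene. The authors deposited log10 values: a normalized value was turned to log2 and then to log10, as read from the values themselves, and a deposited 0 was taken as a placeholder for a value of at most 1. Coordinates are those of mm10, a build named in the submitters' processing notes. Aligner, counter, strand setting and normalization were not given in the sources used here. Values were back-transformed, with 0 kept as 0. Of low values (under 12), 28% to 32.5% lay within 0.01 of a whole step, so reads could not be recovered, no count test was run and no counting interval can be had.

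The test used log2(value + 1), which understates the change of low genes. In limma 3.58.1 under R 4.3.3, a model of 3 group means was fitted to the 6 samples, using the variance trend but no replicate block, over genes at 1 or above in at least 2 libraries. P-values were two-sided and adjusted by Benjamini-Hochberg over all 24139 genes. The fit was also run on simulated data, with known changes placed only in genes with a mean of at least 20. That run assumed the size of the noise and does not tell how changes of low genes are recovered. Exon lengths came from GENCODE vM21, which held 53237 of the 53342 identifiers, 51270 of them with the same coordinates. The members, the wider list and the markers were chosen with earlier results of these data known. From the wider list the genes called in LTK-14A against DMSO and, per role, up to 4 uncalled genes of highest mean were named; those named beyond these, from LTK-14A against untreated or an alternative, were chosen after their values were seen. For each member with a mean of at least 20, the 2 genes of highest Pearson r were named, unnamed gene models, small RNA genes and pseudogenes passed over. One gene that this rule gives is not reported here. Alternatives were quantile normalization, no trend, no filter, a mean of at least 20, a pseudocount of 0.1, a deposited 0 set to 1, a replicate block, the 2 compared groups alone and each library left out. Scaling by median ratios and scaling without the ribosomal RNA loci were chosen after seeing the data.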

Additional observations from a re-analysis of the deposited data

How the results depend on the processing

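Genes called in LTK-14A against DMSO numbered 2548, against 1205 without the variance trend and 591 to 3629 with 1 library left out. Members called numbered 2, against 1 to 2 with 1 library left out, and 3 without the trend or with a pseudocount of 0.1, Wnt10b being the third. Genes of the wider list called numbered 4, against 2 without the trend, 8 in the 2 groups alone, and 1 to 8 with 1 library left out; the 4 others among the 8 were Wnt6, Csnk1a1, Tcf7l1 and Bcl9l. In DMSO against untreated the count was 6, against 3 with a pseudocount of 0.1, 0 in the 2 groups alone and 0 to 109 with 1 library left out. In LTK-14A against untreated it was 3103, against 1387 without the trend, 2044 in the 2 groups alone and 867 to 4016 with 1 library left out. There the members called numbered 2, against 1 to 3 with 1 left out, and without the trend they were Fzd4 and Wnt10b, and the wider list gave 12, against 1 without the trend, 5 in the 2 groups alone and 2 to 15 with 1 left out. The split of called genes in LTK-14A against DMSO was 960 higher and 1588 lower, and 1077 and 1274 after quantile normalization.

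Signs turned only for genes that were not called in the comparison concerned. Fzd7 in LTK-14A against DMSO was 0.042 after quantile normalization, 0.0042 with median-ratio scaling and -0.0948 to 0.0102 with 1 library left out. In DMSO against untreated Fzd1 was 0.0314 after quantile normalization, 0.0239 without the ribosomal RNA loci and -0.1707 to 0.1249 with 1 left out; there the ranges with 1 left out were -0.0805 to 0.2385 for Wnt5a, -0.167 to 0.296 for Fzd4, -0.4918 to 0.0581 for Wisp2 and -0.6162 to 1.0873 for Dkk3. Dkk3 ranged from -0.961 to 0.7425 in LTK-14A against DMSO and, with 1 left out, from -0.6162 to 0.8689 in LTK-14A against untreated, where Sfrp2 ranged from -0.5674 to 0.2262. The cause of these shifts was not tested. Leaving out 1 of 2 libraries of a group assumes that the lone one varies like the other groups. The deviations of same-numbered samples correlated at -0.018 to 0.167 over 13179 genes. With 1 difference per group this cannot settle whether the samples were paired. With the replicate block 2635, 5 and 3269 genes were called in the 3 comparisons, and 2, 0 and 2 members. Depth limits Wnt10b and Dkk3, which rest on about 1 step per library, so nothing is concluded from the calls of Wnt10b in some alternatives. With a mean of at least 20, neither could be fitted.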
